A study of Mus musculus with 38 samples.

Results

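The mRNA of 6 synaptic and axonal adhesion genes was examined in the prefrontal cortex (PFC) and hypothalamus (Hypo) of mice with extra Ube3a. The genes were the neurexins Nrxn2 and Nrxn3, the neuroligins Nlgn1, Nlgn2 and Nlgn3, and Cntnap2, taken by symbol from a table of read counts for 54165 genes, in which each symbol matched 1 row. The table holds 38 bulk RNA-seq libraries from 25 adult FVB/NJ mice, and 13 of these mice gave both tissues. Ube3a2X mice are homozygous for a Ube3a transgene and their wild-type (WT) littermates carried no transgene. The PFC had 5 libraries for each combination of sex and genotype. The Hypo had 4 libraries of WT females, 4 of WT males, 5 of Ube3a2X females and 5 of Ube3a2X males. The design asks how each gene differs between the tissues, between the genotypes, between the sexes, and whether the effect of genotype differs between the sexes.

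Neurexins are presynaptic membrane proteins that reach across the synaptic cleft to many partners, of which the neuroligins on the postsynaptic side are the best known. Each neurexin gene gives long alpha and short beta proteins from separate promoters, and Nlgn1 is known for excitatory synapses, Nlgn2 for inhibitory synapses and Nlgn3 for both. Cntnap2 encodes a distant relative of the neurexins that holds voltage-gated potassium channels in place beside the nodes of myelinated axons. The counts are sums over all transcripts of a gene, so alpha and beta forms and alternative exons were not separated.

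In the GRCm38 genome, Nrxn2 (ENSMUSG00000033768) lies on the plus strand of chromosome 19 from 6418731 to 6544169. Nrxn3 (ENSMUSG00000066392) lies on the plus strand of chromosome 12 from 88722876 to 90334935. Nlgn1 (ENSMUSG00000063887) is on the minus strand of chromosome 3 from 25426215 to 26332460. The short gene Nlgn2 (ENSMUSG00000051790) is on the minus strand of chromosome 11 from 69823122 to 69837784. Nlgn3 (ENSMUSG00000031302) is X-linked, on the plus strand from 101299168 to 101325963. Cntnap2 (ENSMUSG00000039419) extends over the plus strand of chromosome 6 from 45059357 to 47304213. The GC content of the longest transcript was 62.4% for Nrxn2 and 60.7% for Nlgn2, 49.3% for Nlgn3, 47.5% for Nrxn3, 44.5% for Cntnap2 and 38.9% for Nlgn1, with a median of 49.2% over the genes of the comparison of tissues. Both GC-rich genes therefore lay above the upper quartile of 54.1%, and Nlgn1 lay below the lower quartile of 44.5%.

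Promoter windows, from 250 bases before to 50 bases after a transcription start, were held by RefSeq (GRCm38.p6) for 4 of the 6 genes, with 8 windows in all. They are shown for the pair of genes whose level differed between the tissues, because their counts add transcripts from several starts, and the window of Nlgn2, the gene with the highest level per length, is set beside them. The windows do not cover all these starts. In the GENCODE annotation, 1, 2 and 2 of 13 Nrxn3 transcripts start in its 3 windows. Of 5 Nlgn1 transcripts, 1 starts in the upstream window and 0 in the inner one. Letters run 5′ to 3′ on the strand of the gene, and capitals mark CG dinucleotides.
Nrxn3, chr12:88794254-88794553, plus strand: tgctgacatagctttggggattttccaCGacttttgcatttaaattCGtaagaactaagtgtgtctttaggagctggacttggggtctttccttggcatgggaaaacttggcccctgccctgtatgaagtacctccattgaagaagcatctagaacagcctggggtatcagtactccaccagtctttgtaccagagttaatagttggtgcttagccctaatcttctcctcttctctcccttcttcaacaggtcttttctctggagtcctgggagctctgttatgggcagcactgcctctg
Nrxn3, chr12:88953140-88953439, plus strand: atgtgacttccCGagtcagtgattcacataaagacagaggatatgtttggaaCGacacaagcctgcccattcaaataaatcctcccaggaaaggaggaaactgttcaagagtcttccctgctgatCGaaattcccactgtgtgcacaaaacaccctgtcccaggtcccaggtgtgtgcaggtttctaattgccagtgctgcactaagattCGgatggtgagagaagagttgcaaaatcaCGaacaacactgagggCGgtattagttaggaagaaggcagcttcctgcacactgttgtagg
Nrxn3, chr12:89812233-89812532, plus strand: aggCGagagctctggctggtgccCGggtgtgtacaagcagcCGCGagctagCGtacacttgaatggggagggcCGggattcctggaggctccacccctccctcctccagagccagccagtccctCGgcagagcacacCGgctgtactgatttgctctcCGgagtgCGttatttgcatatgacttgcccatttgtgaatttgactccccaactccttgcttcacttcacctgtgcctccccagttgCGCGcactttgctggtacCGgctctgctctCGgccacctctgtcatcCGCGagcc
Nlgn1, chr3:26331860-26332159, minus strand: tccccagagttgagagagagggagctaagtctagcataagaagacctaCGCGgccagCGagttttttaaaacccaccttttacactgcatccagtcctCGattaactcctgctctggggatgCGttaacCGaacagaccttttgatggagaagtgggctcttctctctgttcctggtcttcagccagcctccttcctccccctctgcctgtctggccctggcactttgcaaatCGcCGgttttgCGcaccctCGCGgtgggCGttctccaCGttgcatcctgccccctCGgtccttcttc
Nlgn1, chr3:26153937-26154236, minus strand: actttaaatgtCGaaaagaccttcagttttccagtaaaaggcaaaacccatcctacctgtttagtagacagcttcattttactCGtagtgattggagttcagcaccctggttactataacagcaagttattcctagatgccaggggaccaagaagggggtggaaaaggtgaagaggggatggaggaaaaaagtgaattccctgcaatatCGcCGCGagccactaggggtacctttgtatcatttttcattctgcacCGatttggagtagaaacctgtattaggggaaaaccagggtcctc
Nlgn2, chr11:69837735-69838034, minus strand: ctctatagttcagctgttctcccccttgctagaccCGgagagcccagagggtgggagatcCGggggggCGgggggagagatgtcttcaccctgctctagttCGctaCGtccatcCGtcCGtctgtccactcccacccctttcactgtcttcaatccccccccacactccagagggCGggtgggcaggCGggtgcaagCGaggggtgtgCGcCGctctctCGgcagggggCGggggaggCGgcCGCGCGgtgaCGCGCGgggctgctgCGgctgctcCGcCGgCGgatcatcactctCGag

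The CG dinucleotide occurred 2, 6 and 16 times in the 3 windows of Nrxn3, in their order along the gene. The third of these windows lies deep within the gene, far downstream of the first. In Nlgn1 the upstream window held 14 CG dinucleotides and the inner one 6, and the window of Nlgn2 held 26. The median over 32851 windows of 27025 genes was 7, and 94.6% of windows held at least 1. Fewer CG dinucleotides than in the window of Nlgn2 were found in 83.1% of all windows, and fewer than in the first window of Nrxn3 in 14.1%. The letters TATAAA, searched on both strands, were in none of the 8 windows and in 13.6% of all windows, and TGACGTCA was in none of the 8 and in 1.79% of all.

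Between 36.9 and 381 megareads (M reads) per library were counted on genes. The least covered of the 6 genes, Nlgn1, had at least 1844 reads in every library, so counting error was small beside the spread between mice. The targeted gene checked the genotype labels: Ube3a had 105 to 349 CPM (reads of a gene per M counted reads) in the 18 WT libraries and 698 to 2270 CPM in the 20 Ube3a2X libraries. Slc17a7, the vesicular glutamate transporter of cortical excitatory neurons, had a median of 1700 CPM in the PFC and 1.23 CPM in the Hypo. Pmch, the precursor of a hypothalamic peptide, had 434 CPM in the Hypo and 0.224 CPM in the PFC. All CPM values are scaled by TMM factors over all libraries, and where a mouse is named by its number it is the number of its label.

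The libraries of 3 female mice stood apart for these genes. PFC Ube3a2X female 468 had the highest PFC level of Nrxn3, Nlgn1, Nlgn3 and Cntnap2 and, in the quality table, the lowest AT dropout of the PFC (10.6, against a PFC median of 18.2; the shortfall of reads in AT-rich windows) and the fewest counted reads. PFC WT female 397 had the highest Nrxn2 of all libraries, 595 CPM. Hypo WT female 471 had the lowest Hypo level of Nrxn3, Nlgn1, Nlgn2, Nlgn3 and Cntnap2, and 4610 CPM summed over 5 pituitary markers, against a Hypo median of 81.2 CPM. For the comparison of tissues, values without these 3 libraries are given beside the others, and the choice to remove all 3 together was made after seeing the data. The libraries were picked by the levels of these same genes, so p-values without them are a description and not support for a difference.

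The levels of the 6 genes can be compared with each other only per length, as RPKM (CPM per kilobase of exon). Nlgn2 was the highest in both tissues, at 56.7 ± 5.62 RPKM in the PFC (SD, n = 20) and 47.8 ± 3.92 in the Hypo (SD, n = 18), and it exceeded the next gene in 20 of 20 and 18 of 18 libraries. Nlgn1 was the lowest in both tissues, at 10.5 ± 2.5 RPKM among PFC libraries and 7.47 ± 1.23 among Hypo libraries. The genes between them overlapped with their neighbours. The PFC order was Nrxn3 (29.3 ± 3.96), Nrxn2 (24.8 ± 5.42), Cntnap2 (21.2 ± 3.5) and Nlgn3 (18.8 ± 1.55), with each of the first 3 above its next neighbour in 16, 16 and 18 of 20 libraries. In the Hypo, Cntnap2 moved up to second place with 25.5 ± 3.29 RPKM and lay above Nrxn2 (19.7 ± 4.08) in 15 of 18 libraries. Nrxn2, Nlgn3 (18.8 ± 1.92) and Nrxn3 (18.1 ± 2.9) did not separate there, since Nrxn2 lay above Nlgn3 in 9 and Nlgn3 above Nrxn3 in 11 of 18 libraries.

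**Figure D1:**
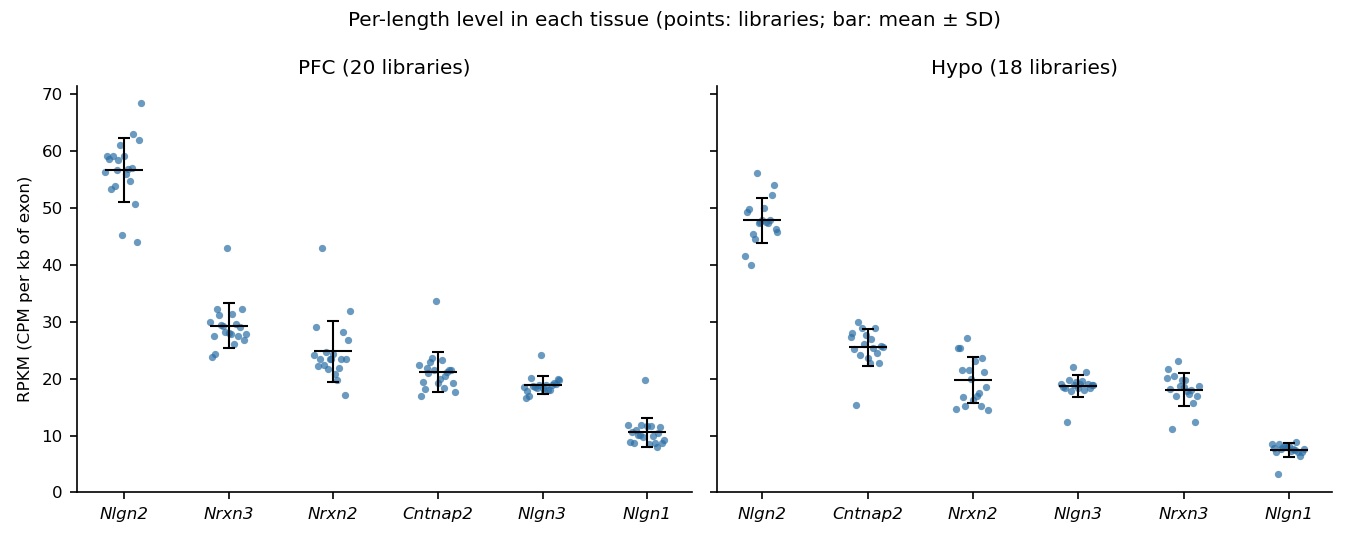
Per-length level (RPKM, CPM per kilobase of exon) of the 6 genes in 20 PFC and 18 Hypo libraries, ordered by mean, with points for libraries and bars for mean ± SD. Nlgn2 is the highest and Nlgn1 the lowest in both tissues, and Nrxn3 is next to Nlgn2 in the PFC and next to Nlgn1 in the Hypo.

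The values of Nlgn3 carry a further uncertainty. The transcript Gm21986 (ENSMUSG00000096056) shares 3823 exonic bases with Nlgn3 on the same strand, and its reads amounted to 34.7 to 64.2% of those of Nlgn3 over the 38 libraries (median 54.7%). How the counting divided reads between them was not given in the sources used here. On the opposite strand, exons of other genes share 682 and 207 bases with Nrxn2, 439 with Nrxn3 and 1229 with Nlgn1. From 91.5 to 99.1% of reads lay on the expected strand, and the strand setting of the counting was likewise not given.

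**Figure D2:**
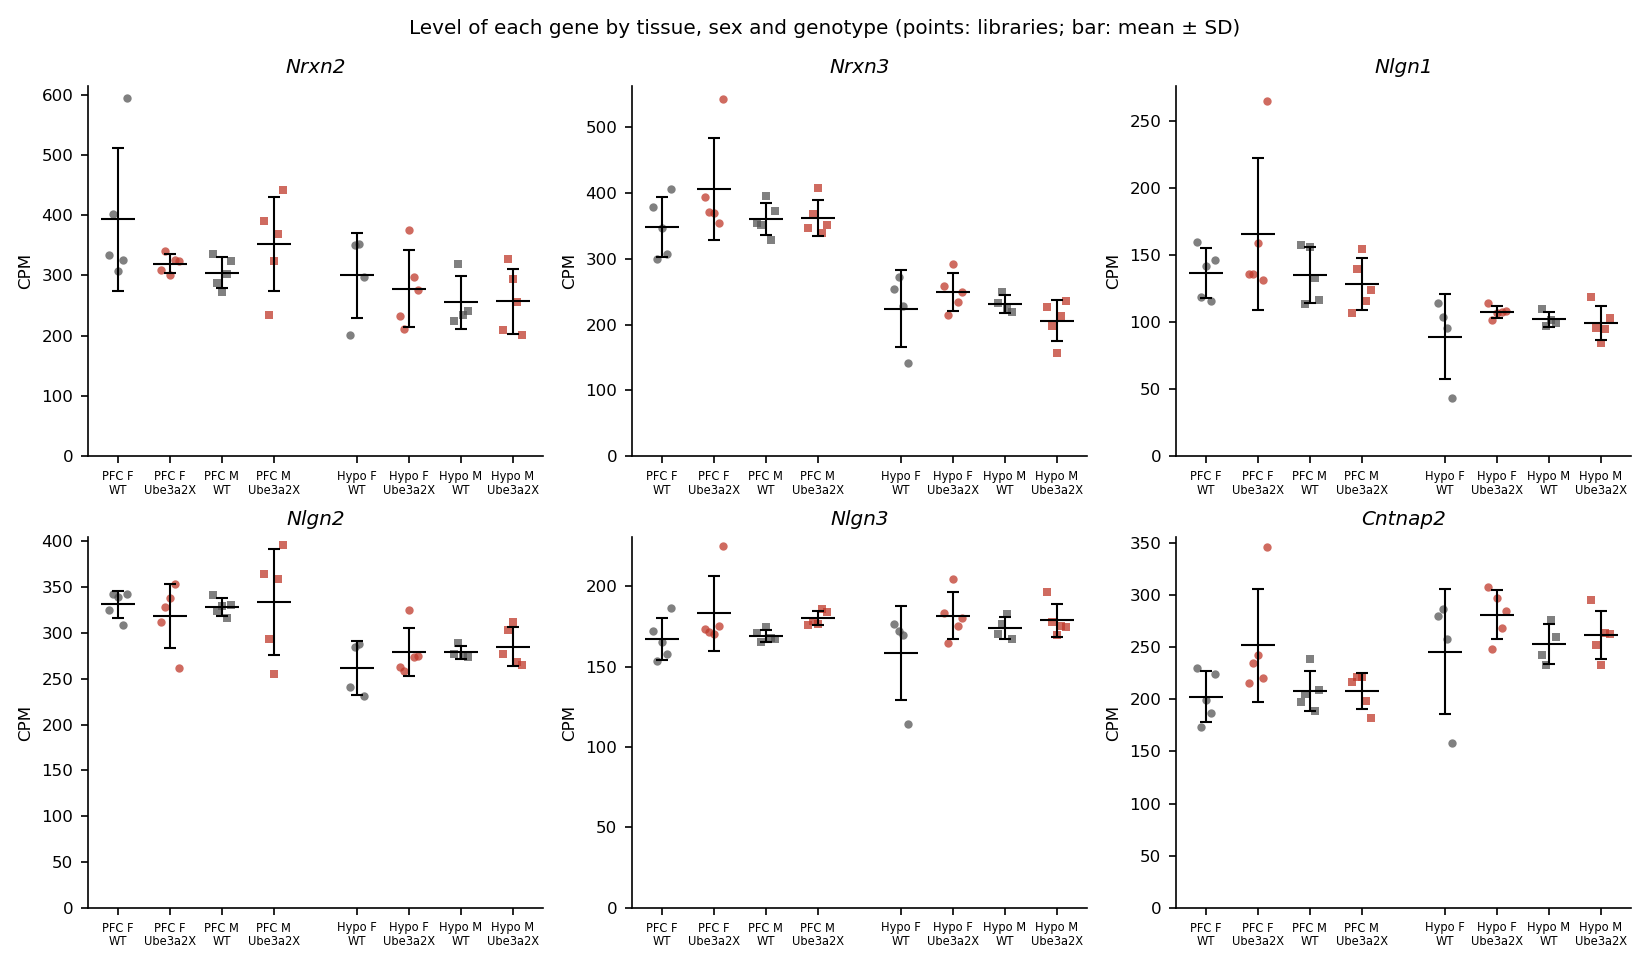
Level in CPM (y axes from 0) of each gene in the 8 groups of tissue, sex (F, M) and genotype, with points for libraries and bars for mean ± SD. Nrxn3 in the PFC libraries lies above all Hypo libraries, and single high points stand out in the PFC of Ube3a2X females (Nrxn3, Nlgn1, Nlgn3, Cntnap2) and WT females (Nrxn2).

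The clearest difference in these genes was between the tissues. Nrxn3 and Nlgn1 had more mRNA in the PFC than in the Hypo, by 1.7-fold and 1.46-fold, and the other 4 genes did not pass the test. Of the 6 genes, 2 were called at an adjusted p under 0.05 (edgeR quasi-likelihood test with RNA integrity number, RIN, as covariate, Benjamini-Hochberg over 22282 genes), both higher in the PFC, where 63.4% of all genes were called, 31% higher and 32.4% lower in the PFC. The median log2 fold change was 0.21 over the 6 genes and −0.02 over all genes tested. The share of the 6 genes called higher was near that of all genes. In bulk tissue, fewer cells of a type and less RNA per cell cannot be told apart. The tissues also differed in extraction kit and RNA input (RNeasy Micro for the PFC and RNeasy Mini for the Hypo), which cannot be told apart from tissue.

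Nrxn3, a presynaptic neurexin, had 300, 307, 346, 378 and 406 CPM in the PFC of WT females and 329, 351, 354, 372 and 395 CPM in that of WT males. Its PFC level was 355, 370, 371, 393 and 542 CPM in Ube3a2X females and 338, 346, 351, 367 and 406 CPM in Ube3a2X males. All 20 PFC values lay above all 18 Hypo values, as did those of 10.9% of the genes tested. In the Hypo it had 142, 228, 254 and 273 CPM in WT females, 218, 225, 233 and 250 CPM in WT males, 214, 235, 249, 259 and 291 CPM in Ube3a2X females, and 156, 198, 213, 227 and 236 CPM in Ube3a2X males. The log2 fold change, PFC minus Hypo, was 0.76 (edgeR quasi-likelihood test, SE 0.11, adjusted p = 1.13e-07). Within the 13 mice that gave both tissues, the PFC was higher in 13, by 0.34 to 1.38 on the log2 scale (median 0.61). With the mouse as a fixed block in those 26 libraries the log2 fold change was 0.88, in a fit that held 1 WT female. Without the 3 libraries that stood apart it was 0.60 (edgeR, adjusted p = 1.62e-08).

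Nlgn1, the neuroligin of excitatory synapses, showed a smaller and less separated difference. In the PFC it had 116, 119, 142, 146 and 160 CPM in WT females, 114, 117, 133, 156 and 157 CPM in WT males, 131, 136, 136, 159 and 265 CPM in Ube3a2X females, and 107, 116, 124, 140 and 155 CPM in Ube3a2X males. Its Hypo level was 43.2, 95.4, 104 and 115 CPM in WT females, 97.0, 99.8, 102 and 110 CPM in WT males, 101, 107, 108, 108 and 114 CPM in Ube3a2X females, and 84.8, 95.2, 95.9, 103 and 119 CPM in Ube3a2X males. The tissues overlapped, with 15 of 20 PFC libraries above every Hypo library. The log2 fold change was 0.54 (edgeR quasi-likelihood test, SE 0.14, adjusted p = 0.0014), and the PFC was higher in 12 of 13 mice. The mouse as a fixed block gave 0.58, and the call was lost in that fit, which held 1 WT female. Without the 3 libraries that stood apart the log2 fold change was 0.31 (edgeR, adjusted p = 0.00252), and without PFC Ube3a2X female 468 alone it was 0.38 (adjusted p = 0.0126).

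Cntnap2 had a negative log2 fold change between the tissues, and its call depended on the model. Its level was 173 to 345 CPM in the PFC (median 216) and 158 to 308 CPM in the Hypo (median 263), and the ranges overlapped widely. The PFC was higher in 1 of 13 mice. The log2 fold change was −0.20 (edgeR quasi-likelihood test, SE 0.10, adjusted p = 0.0756). Both extremes came from libraries that stood apart. With the mouse as a fixed block, in a fit with 1 WT female, the value was −0.04 and was not called. Without all 3 libraries that stood apart it was −0.36 (edgeR, adjusted p = 6.86e-06). That p-value is not support for a difference, since the libraries were picked by the levels of these genes. Leaving out PFC Ube3a2X female 468 alone gave −0.29 (adjusted p = 0.00705) and Hypo WT female 471 alone −0.26 (adjusted p = 0.00294). Leaving out Hypo WT male 423, whose RIN of 6.8 was the lowest in the Hypo, moved it the other way to −0.12 (adjusted p = 0.465).

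Nrxn2, the other neurexin, had 235 to 595 CPM in the PFC (median 325) and 201 to 375 CPM in the Hypo (median 266), with a log2 fold change of 0.28 (edgeR quasi-likelihood test, SE 0.15, adjusted p = 0.102). Nlgn2, the neuroligin of inhibitory synapses, had 255 to 396 CPM in the PFC (median 330) and 232 to 325 CPM in the Hypo (median 275), with a log2 fold change of 0.15 (edgeR quasi-likelihood test, SE 0.08, adjusted p = 0.0753). Nlgn3 had nearly equal levels, 153 to 225 CPM in the PFC (median 173) and 114 to 205 CPM in the Hypo (median 175), with a log2 fold change of 0.04 (edgeR quasi-likelihood test, SE 0.07, adjusted p = 0.645). All 3 genes overlapped between the tissues. Without PFC Ube3a2X male 253 Nrxn2 was called (0.33, adjusted p = 0.0424), and without PFC Ube3a2X female 468 Nlgn2 was called (0.19, adjusted p = 0.0258). Over all 38 libraries left out in turn, Nlgn2 was called in 3 fits, the others being without PFC Ube3a2X male 258 and without Hypo Ube3a2X female 420. It ranged from 0.06 without Hypo WT male 423 (adjusted p = 0.626) to 0.20 without PFC Ube3a2X male 258. With all 3 libraries that stood apart removed, Nrxn2 was at 0.14 (adjusted p = 0.41) and Nlgn2 at 0.13 (adjusted p = 0.111). Nlgn3 then turned to −0.09 (adjusted p = 0.0532). Within mice, the PFC was higher in 10 of 13 for Nrxn2, 10 of 13 for Nlgn2 and 7 of 13 for Nlgn3.

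RIN moved with the tissue, at a median of 7.6 in the PFC and 8.95 in the Hypo. So did the ratio of 5′ to 3′ coverage, at 0.442 and 0.735, and the AT dropout, at 18.2 and 21.4. Reads lay on the expected strand in 93.7% of cases in the PFC and 98.4% in the Hypo, and the share of bases in untranslated regions was 47.9% and 42.1% (medians). The part of the strand and untranslated shares in the differences was not tested. Without RIN in the model 5 of the 6 genes were called (16980 of 22282 genes), all but Nlgn3, with Cntnap2 lower (−0.26) and Nrxn2 (0.32) and Nlgn2 (0.25) higher in the PFC. Taking each library's dependence on GC content and exon length out of the counts gave 6 calls (14847 of 22282 genes), among them Nrxn3 at 0.81 and Nlgn1 at 0.48. Nrxn3 was the only gene of the 6 called in the comparison of tissues under every alternative that was run.

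**Figure D3:**
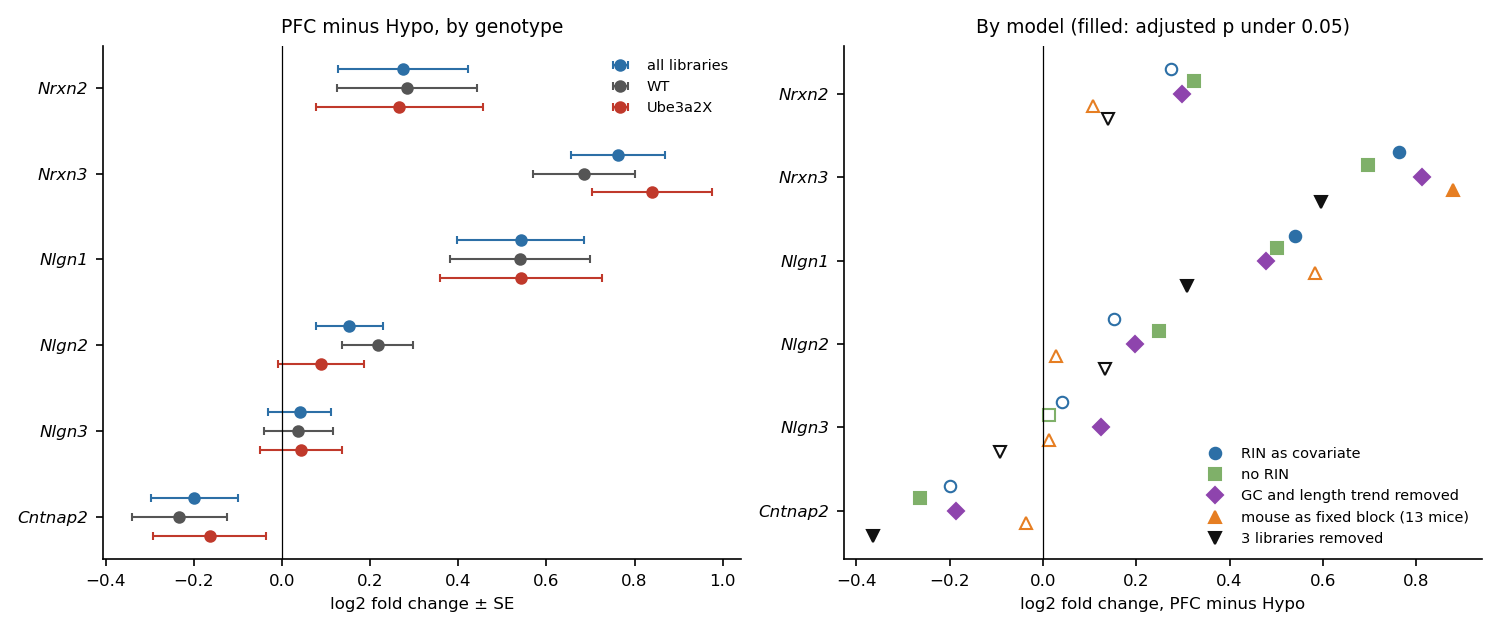
Log2 fold change, PFC minus Hypo, of the 6 genes. Left, over all libraries, in WT and in Ube3a2X, with bars for SE, and right, under 5 models, filled where the adjusted p is under 0.05. Nrxn3 is filled under all 5 models shown and Nlgn1 under 4 of them, and Cntnap2 lies to the left of 0 in all.

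The same comparison was made within each genotype. In WT mice 3 genes were called higher in the PFC (edgeR, 60.7% of all genes called, 29% higher and 31.6% lower): Nrxn3 with a log2 fold change of 0.69 (adjusted p = 4.61e-06), Nlgn1 with 0.54 (adjusted p = 0.00386) and Nlgn2 with 0.22 (adjusted p = 0.0204). In Ube3a2X mice 2 were called (edgeR, 55.5% of all genes called, 27.8% higher and 27.7% lower), Nrxn3 with 0.84 (adjusted p = 2.68e-06) and Nlgn1 with 0.54 (adjusted p = 0.0122), the latter lost without PFC female 468 (0.30, adjusted p = 0.141) and kept without all 3 libraries that stood apart (0.295, adjusted p = 0.0247). The call of Nlgn2 in WT was lost without Hypo male 423 (0.12, adjusted p = 0.316) and without Hypo female 471 (0.16, adjusted p = 0.0886). Without all 3 libraries that stood apart, Cntnap2 was called lower in the PFC in both genotypes, at −0.40 in WT (adjusted p = 5.72e-06) and −0.33 in Ube3a2X (adjusted p = 0.00124). Nlgn3 was then also called lower in WT (−0.11, edgeR, adjusted p = 0.0391). These calls are not support for a difference, since the libraries left out were picked by the levels of these genes. With the mouse as a fixed block, Nrxn3 was at 0.72 in WT and 1.03 in Ube3a2X. Only 1 WT female entered that fit, so its WT values rest in large part on 1 mouse. With the mouse as a random block over all libraries (limma-voom), 3 genes were called in WT and 2 in Ube3a2X. The call of Nlgn2 in WT and its absence in Ube3a2X (0.09, adjusted p = 0.452) do not show a difference between the genotypes, which was tested directly. The difference of the tissue effect between the genotypes was called in 0 of 22282 genes (0%), and at an unadjusted p under 0.05 in 11.1% of genes and 0 of the 6. It was largest in size for Nrxn3 at 0.15 (SE 0.14) and Nlgn2 at −0.13 (SE 0.10).

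The partners of these proteins were described with 7 lists of 47 genes, all tested between the tissues. At an adjusted p under 0.05, 21 were higher and 18 lower in the PFC, and 8 were not called, beside 31% higher and 32.4% lower among all genes. Ligands of neurexins held some of the widest differences. Cbln1, a secreted cerebellin that binds neurexins, had medians of 2.94 CPM in the PFC and 110 CPM in the Hypo, a log2 fold change of −5.16 (edgeR quasi-likelihood test, SE 0.17, adjusted p = 1.63e-24). Nxph4, a neurexophilin that binds alpha neurexins, had 0.45 and 23.3 CPM (−5.34, SE 0.38, adjusted p = 8.33e-15). The ligand C1ql2 had 0.657 and 9.54 CPM (−3.81, SE 0.22, adjusted p = 1.87e-17), whereas its relative C1ql3 had 206 and 26.1 CPM (2.89, SE 0.14, adjusted p = 1.18e-19). Cbln4 was lower in the PFC as well, with 11.6 and 46.7 CPM (−2.15, SE 0.14, adjusted p = 1.66e-15). Of 17 neurexin ligands 7 were higher and 6 lower in the PFC.

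Among 6 regulators of neuroligins, 2 were higher and 3 lower in the PFC. Beside this and the counts that follow, 31% of all genes were called higher and 32.4% lower. Mdga1, which binds neuroligins and keeps neurexins away from them, had 10.6 CPM in the PFC and 57.7 CPM in the Hypo (−2.63, SE 0.16, edgeR, adjusted p = 9.09e-17). Of 7 intracellular partners of neurexins 6 were higher in the PFC and 0 lower. The adaptor Apba2 had the lowest adjusted p among them, with 228 and 103 CPM (1.12, SE 0.08, edgeR, adjusted p = 5.99e-15). Of 3 splicing factors of neurexins 1 was higher and 2 were lower. Khdrbs3 had 217 CPM in the PFC and 63.3 CPM in the Hypo (1.78, SE 0.07, adjusted p = 2.9e-22), and Khdrbs2 had 7.84 and 15.3 CPM (−1.07, SE 0.07, adjusted p = 4.14e-15). In the list of the Cntnap2 complex, 4 of 6 genes were higher, among them the potassium channel subunit Kcnab2 with 502 and 163 CPM (1.62, SE 0.08, adjusted p = 7.55e-19), and 1 was lower. In the remaining list, of relatives of Cntnap2 and their axonal partners, 1 of 6 was higher and 4 were lower. Summed oligodendrocyte markers moved with the tissue too, with medians of 1510 CPM in the PFC and 3640 CPM in the Hypo over 5 genes, and their part in these differences was not tested.

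**Figure D4:**
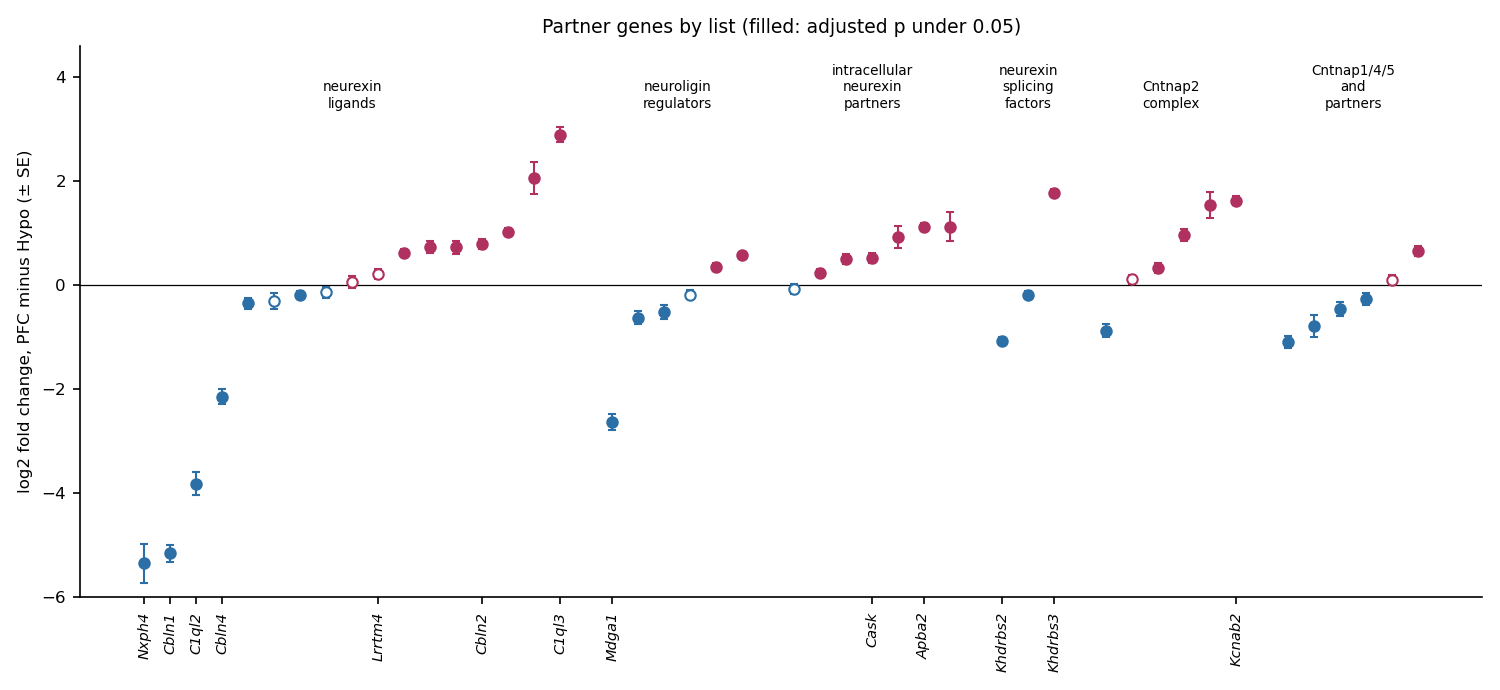
Log2 fold change ± SE, PFC minus Hypo, of 45 partner genes in 6 of the lists, filled where the adjusted p is under 0.05, with names under the 13 genes that the text describes. Cbln1 and Nxph4 lie lowest, below −5, C1ql3 lies highest, and 6 of 7 intracellular partners lie above 0 and are filled.

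In the PFC, the effect of genotype was tested in 5 of the 6 genes. Nlgn3 was removed with the 15% of genes of lowest variance, and its values come from the fit without that filter. None of the 5 was called. For Ube3a2X minus WT over both sexes 0 of 5 were called and 0 had an unadjusted p under 0.05 (edgeR, 0.0183% of 10900 genes called and 7.93% at an unadjusted p under 0.05). The largest log2 fold changes were −0.13 for Nrxn2 (SE 0.12) and 0.09 for Cntnap2 (SE 0.06). In males 0 of 5 were called and 0 had an unadjusted p under 0.05 (edgeR, 0.0183% and 18.5% of genes). In females 0 were called and 2, Nrxn2 and Cntnap2, had an unadjusted p under 0.05 (edgeR, 0.00917% and 14.9% of genes). DESeq2 and limma-voom also called 0 of the 5 in each of these comparisons.

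Nrxn2 had 308, 325, 335, 402 and 595 CPM in PFC of WT females and 300, 309, 324, 325 and 341 CPM in that of Ube3a2X females. In WT males it had 273, 288, 302, 324 and 335 CPM and in Ube3a2X males 235, 324, 369, 390 and 441 CPM. The groups overlapped in both sexes, with 3 Ube3a2X males above and 1 below all WT males. The log2 fold change was −0.42 in females (edgeR quasi-likelihood test, SE 0.18, unadjusted p = 0.0283, adjusted p = 0.314) and 0.17 in males (SE 0.16, adjusted p = 0.598). The interaction, the effect in males minus that in females, was 0.59 (SE 0.24, unadjusted p = 0.0246, adjusted p = 0.145). It rested on 1 library, since without WT female 397 it was 0.14 (adjusted p = 0.871) and the effect in females was −0.04. The library of that female had the highest AT dropout of its group (21.1), though PFC Ube3a2X males reached 22.1. It also had the lowest share of bases in untranslated regions of the PFC (40.3%), and the part of either was not tested. With GC and length trend removed the interaction was 0.13 (edgeR, adjusted p = 0.659). Without Ube3a2X male 253, the lowest in its group, it was 0.68 and was called (adjusted p = 0.0483), in a fit that called 1015 of 10908 genes.

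Cntnap2 had 173, 187, 199, 224 and 230 CPM in the PFC of WT females and 215, 220, 234, 242 and 345 CPM in that of Ube3a2X females. In males it had 188, 197, 205, 209 and 238 CPM in WT and 182, 198, 217, 221 and 221 CPM in Ube3a2X. Thus 3 of 5 Ube3a2X females lay above every WT female, and the males overlapped. The log2 fold change in females was 0.19 (edgeR quasi-likelihood test, SE 0.09, unadjusted p = 0.0417, adjusted p = 0.323), and the interaction was −0.20 (SE 0.12, adjusted p = 0.279). Without WT female 93 the interaction was −0.33 and was called (adjusted p = 0.0471), in a fit that called 1716 of 10919 genes. Without WT female 397 it was −0.06 (adjusted p = 0.896), and without that library and PFC female 468 the effect in females was 0.05 (adjusted p = 1).

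Over the PFC interaction, 0 of 5 genes were called and 1 had an unadjusted p under 0.05 (edgeR, 0% and 25.4% of genes). DESeq2 called 0 of the 5 as well, and 831 of 10900 genes. The other members of the 5 had interactions of −0.09 for Nrxn3 (SE 0.09), −0.19 for Nlgn1 (SE 0.17) and 0.02 for Nlgn2 (SE 0.10). Nlgn3 is the 1 gene whose groups did not overlap in PFC males. It had 165, 167, 168, 171 and 175 CPM in WT males and 176, 177, 178, 184 and 186 CPM in Ube3a2X males, and 2.62% of 12824 genes likewise had every Ube3a2X male above every WT male. The fitted log2 fold change in males, with RIN and surrogate variables, was 0.03 (edgeR quasi-likelihood test, SE 0.05, adjusted p = 0.745). The same groups of males did not overlap in the intronic share of bases (4.4 to 5.85% in WT and 3.1 to 4% in Ube3a2X). Neither did they in the summed level of 4 microglia markers (178 to 236 and 250 to 289 CPM) or of 3 markers of oligodendrocyte precursors (69.8 to 98 and 103 to 145 CPM). The part of these in the level of Nlgn3 was not tested. Gm21986, which shares exons with it, had 73.2 to 86.7 CPM in WT males and 82.3 to 97.6 CPM in Ube3a2X males.

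In the Hypo all 6 genes were tested and 0 were called for genotype. The background was 0.00843% of 11869 genes called and 5.1% at an unadjusted p under 0.05 over both sexes, 0% and 9.12% in males, and 0.00843% and 3.22% in females (edgeR), and 0 of the 6 had an unadjusted p under 0.05 in any of the 3. For the interaction 0 were called and 0 had an unadjusted p under 0.05 (edgeR, 0% and 7.34% of genes). DESeq2 and limma-voom called 0 as well. The nearest were Nrxn3 and Nlgn1 in males. In the same groups, the summed level of 3 markers of inhibitory neurons did not overlap. It was 869 to 1010 CPM in WT males and 551 to 803 CPM in Ube3a2X males, and its part was not tested. Nrxn3 had 218 to 250 CPM in WT males and 156 to 236 CPM in Ube3a2X males, of which 3 lay below every WT male (log2 fold change −0.21, SE 0.11, edgeR, adjusted p = 0.579). Nlgn1 had 97.0 to 110 CPM and 84.8 to 119 CPM, again with 3 Ube3a2X males below and 1 above every WT male (−0.11, SE 0.05, adjusted p = 0.548). Whether this interaction differed between PFC and Hypo was also tested, with 0 genes called, and in 0 of the 6 and 6.11% of all genes the unadjusted p was under 0.05 (edgeR, 0% called), with values from −0.14 for Cntnap2 (SE 0.26) to 0.36 for Nrxn2 (SE 0.36).

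**Figure D5:**
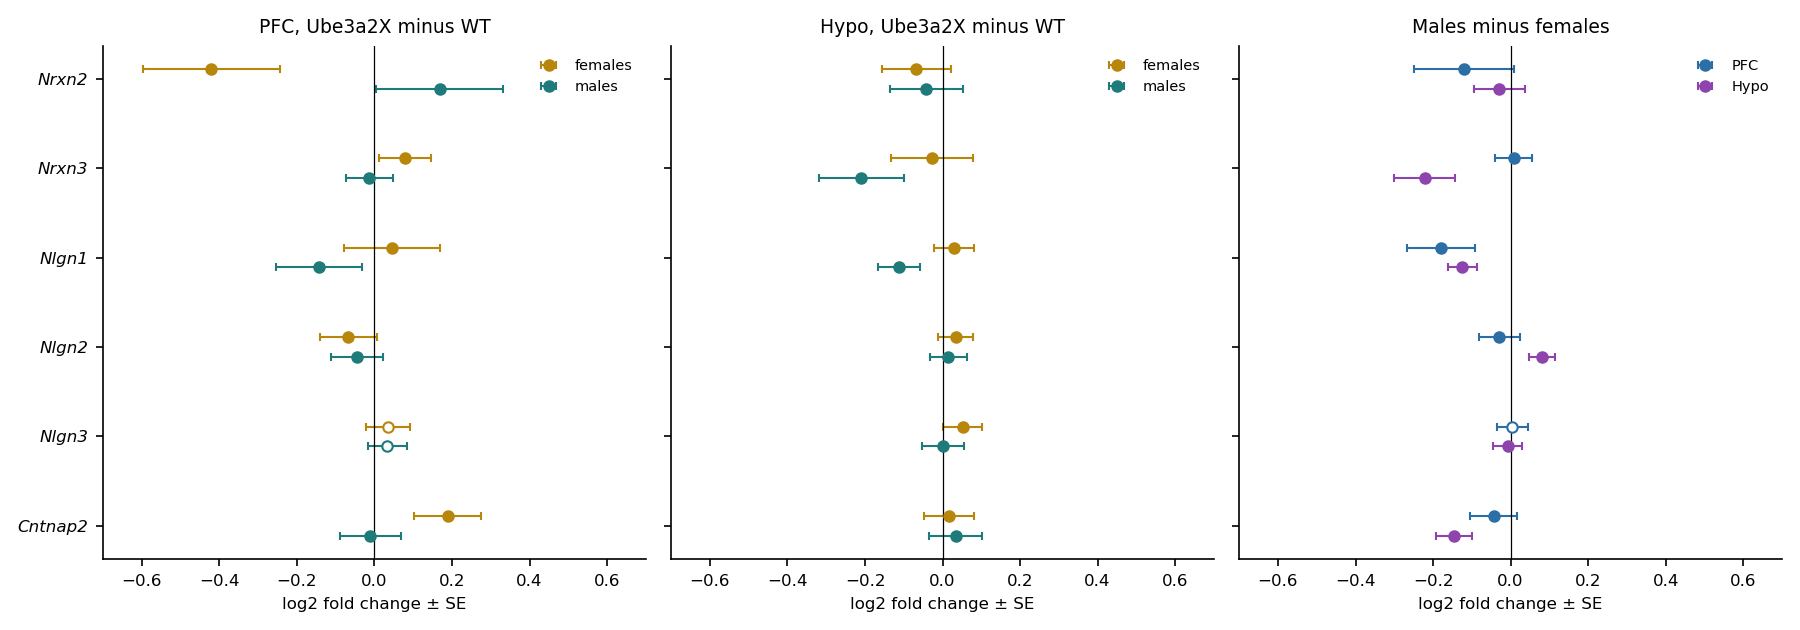
Log2 fold change ± SE of the 6 genes for genotype in each sex in the PFC (left) and the Hypo (middle), and for sex in both tissues (right). Open symbols mark Nlgn3 in the PFC, from the fit without the variance filter, and no value shown has an adjusted p under 0.05, the widest being −0.42 for Nrxn2 in PFC females.

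Sex, taken as males minus females over both genotypes, gave the lowest adjusted p-values outside the comparison of tissues. In the PFC 0 of 5 genes were called and 0 had an unadjusted p under 0.05 (edgeR, 0.0917% and 8.85% of genes), with Nlgn1 nearest at −0.18 (SE 0.09, adjusted p = 0.565). In the Hypo 0 of 6 were called and 4 had an unadjusted p under 0.05 (edgeR, 2.33% and 17.8% of genes). Of these, 3 were lower in males: Nlgn1 by −0.13 (SE 0.04, adjusted p = 0.0863), Cntnap2 by −0.15 (SE 0.05, adjusted p = 0.115) and Nrxn3 by −0.22 (SE 0.08, adjusted p = 0.146). Nlgn2 was the 1 with a positive value, 0.08 (SE 0.03, adjusted p = 0.218). DESeq2 called 1 of the 6, Nlgn1 (−0.13, adjusted p = 0.0312), among 661 of 11869 genes, and limma-voom 0. Leaving out Ube3a2X male 238 brought Nlgn1 to an adjusted p of 0.0479 (506 of 11895 genes called), and leaving out WT male 403 brought Cntnap2 to −0.18 with an adjusted p of 0.0358 (667 of 11897 genes called).

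In the CPM values of the Hypo, males and females overlapped for all 6 genes. Without WT female 471, the lowest library for Nrxn3, Nlgn1 and Cntnap2, the fitted sex differences were −0.21, −0.13 and −0.14, close to those with it. With RIN as the only covariate, in place of RIN and 2 surrogate variables, Nlgn1 changed sign to 0.03 (edgeR, adjusted p = 0.908), and Cntnap2 and Nrxn3 were −0.05 and −0.12. Of the partner genes 3 of 42 tested were called in the Hypo for sex, beside 2.33% of all genes. At an unadjusted p under 0.05 there were 16 of 42, beside 17.8% of all genes (edgeR). All 3 called genes were lower in males: the cerebellin Cbln2 (−0.35, SE 0.08, edgeR, adjusted p = 0.0276), the scaffold kinase Cask, which binds the tails of neurexins (−0.14, SE 0.03, adjusted p = 0.0346), and the neurexin ligand Lrrtm4 (−0.20, SE 0.05, adjusted p = 0.0425). With RIN alone all 3 calls were lost, with Cbln2 at −0.43 (adjusted p = 0.131), Cask at −0.03 (adjusted p = 0.892) and Lrrtm4 at −0.15 (adjusted p = 0.495). Lrrtm4 was also lost with GC and length trends removed (−0.16, adjusted p = 0.168). Each of the 3 calls was lost in some of the fits that left out 1 library, with the highest adjusted p at 0.0933 for Cbln2, 0.132 for Cask and 0.236 for Lrrtm4. Microglia markers, summed over 4 genes, moved with sex in the Hypo, with 124 to 148 CPM in females and 144 to 173 CPM in males. Markers of hypothalamic neurons, summed over 7 genes, had medians of 740 CPM in WT and 659 CPM in Ube3a2X females, and of 586 CPM in WT and 486 CPM in Ube3a2X males, with overlapping ranges. The part of these markers in the differences was not tested. No partner gene was called for sex in the PFC or for genotype or the interaction in either tissue (edgeR, 36 tested in the PFC and 42 in the Hypo), and at an unadjusted p under 0.05 there were 10 of 36 for the PFC interaction, near the 25.4% of all genes.

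Finally, genes whose level moved most like each of the 6 were named, from the Pearson r over the 38 libraries of log2-CPM as deviations from the mean of the own group. Nrxn2 was most like Fbrsl1 (r = 0.908), Prr12 (0.904) and Adgrb1 (0.886), and Nlgn2 most like Sh2b1 (0.909), Bag6 (0.895) and Gaa (0.894). The GC content of these 6 genes was 59.5 to 63.6%, close to that of Nrxn2 and Nlgn2 themselves. Nrxn3 was most like Plcb1 (0.923), Hspa4l (0.913) and Tmod2 (0.913), and Cntnap2 most like Camk4 (0.938), Asxl3 (0.938) and Gsk3b (0.935), with a GC content of 39.5 to 48.2%. Zc3h12b (0.95) and Astn1 (0.948) were among those most like Nlgn1. Gm21986 (0.938), with which it shares exons, and Gsk3b (0.92) were among those most like Nlgn3. The points of such a correlation share a library, its depth and its base composition, and the values are a description without a test.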

How the data were processed

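Gene expression was measured by RNA-seq of 38 libraries. Per the study's methods, the authors prepared all libraries in 1 batch with a stranded mRNA kit, sequenced them from both ends, aligned with STAR (mm10/GRCm38) and used featureCounts with Gencode genes. The deposited counts are raw, whole read counts for 54165 genes. The authors also deposited a quality table per library, with the RNA integrity number and the AT dropout as scores, shares of bases and of reads on the expected strand as fractions, and the coverage variation and 5′ to 3′ bias as ratios, the latter measures from Picard. Tool versions were not given in the sources used here. In that table the row of 1 library, mouse 266, gives the mouse as 66.

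Samples were grouped by the tissue, genotype and sex of their labels, and symbols were matched with GENCODE vM21 (53905 of 54165 identifiers). Within each tissue, genes with under 100 reads in 2 or more libraries were removed, and then the 15% of lowest variance, so that 10900 PFC genes and 11869 Hypo genes were tested. The test was edgeR's quasi-likelihood test (edgeR 4.0.16, R 4.3.3) on TMM-scaled counts with genotype, sex, their interaction, RIN and 2 surrogate variables (sva 3.50.0). Tissues were compared over all libraries in 22282 genes, with group and RIN in the model. P-values were adjusted by Benjamini-Hochberg over all genes tested, with a threshold of 0.05, and checked on simulated counts. Alternatives were DESeq2 1.42.0, limma-voom (limma 3.58.1), other filters and covariates, removal of GC and length trends, each library left out in turn, and the mouse as a block. Within a tissue, p-values measure the spread between mice. The main comparison of tissues took all 38 libraries as independent, although 13 mice gave both tissues, so its p-values measure the spread between libraries.

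The tissues are paired by animal in 13 mice, by the mouse number of the labels. These were 1 WT female, 5 Ube3a2X females, 3 WT males and 4 Ube3a2X males. The fit with the mouse as a fixed block weighted these 4 groups equally and kept RIN. A call lost in it therefore cannot be put down to the pairing alone. Deviations of a mouse's PFC and Hypo from their group means correlated between −0.309 and 0.211 (median −0.00559), over 0.1 in 2 mice.

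Replicates differed by more than sampling noise in all 72 pairs. The 6 genes and the partner lists were chosen with earlier results of these data known. Partner genes were named where they were among the 10 of lowest adjusted p between the tissues, or called within a tissue. For each of the 6 genes the 3 most alike were named, and 2 genes that this rule chose are not reported here. Figures were drawn with matplotlib 3.10.9.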

Additional observations from a re-analysis of the deposited data

Results flagged for a closer look

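In 6 of 48 sets of 4 or 5 libraries (1 gene in 1 group), the highest or lowest library lay far from the others by Dixon's criterion. Chance alone meets it in about 1 of 20 sets, but sets of different genes share their libraries. They are not independent, so the 6 of 48 cannot be set against that rate. In PFC Ube3a2X female 468, Nrxn3 was at 542 CPM against 355 to 393 CPM in the other 4 libraries of its group. In the same library Nlgn1 was at 265 CPM against 131 to 159 CPM, Nlgn3 at 225 CPM against 170 to 175 CPM, and Cntnap2 at 345 CPM against 215 to 242 CPM. This library had the lowest AT dropout (10.6) and the lowest 5′ to 3′ ratio (0.265) of all PFC libraries, and the part of these in its levels was not tested. In Hypo WT female 471, Nlgn3 was at 114 CPM against 169 to 176 CPM in the other 3. That library had the highest share of bases in untranslated regions (53.7%) and the highest summed pituitary markers (4610 CPM), whose part was not tested. In Hypo Ube3a2X female 420, the most deeply sequenced library, Nlgn2 was at 325 CPM against 258 to 275 CPM.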

How the results depend on the processing

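With 1 library left out at a time, 2433 values kept their direction and side of the threshold, 26 lost a call and 18 gained one. Under the other alternatives 876 kept both, 20 lost a call and 26 gained one. A further 114 and 91 changed sign from a value that had been smaller than its SE, with no call before or after, and 3 and 20 others changed sign. The cause was not tested for any change. Between the tissues, members called numbered 5 without RIN, 6 with GC and length trends removed, 1 with the mouse as a fixed replicate block and 2 to 4 with 1 library left out. In WT they numbered 5, 6 and 1 under the first 3 of these settings. In Ube3a2X they numbered 5, 4 and 1, and 1 without a filter on low counts. The fixed block turned Nrxn2 to −0.0416 and Cntnap2 to 0.0786 in Ube3a2X. A random block (limma-voom) gave 2 calls. Removing the 3 libraries that stood apart gave Nlgn3 −0.106 in WT, a call (adjusted p = 0.0391), and gave no value for Nrxn3 in the PFC, which the filters then removed. For PFC genotype, Nrxn2 ran from −0.199 to 0.0269 with 1 library left out and was 0.0217 with 3 removed. In PFC males, quality components gave Nrxn2 −0.335 and Nlgn1 0.0217, and 3 surrogate variables gave Nlgn1 0.0252. In PFC females, 3 surrogate variables gave Nrxn3 −0.00273. For the PFC interaction, members called ranged from 0 to 1 with 1 library left out. Nrxn2 was −0.095 with quality components and Nrxn3 0.0541 with 3 surrogate variables. Nlgn1 was 0.189 with 3 surrogate variables, 0.012 with quality components, 0.00147 with GC and length trends removed, 0.0743 with 3 libraries removed, and −0.358 to 0.0374 with 1 left out. In the Hypo, RIN alone gave Nrxn3 0.00129 and Nlgn1 0.136 for genotype, Nlgn1 0.0324 for genotype in males and 0.0296 for sex, and quality components gave Nlgn1 0.0227 for genotype. Nlgn3 in Hypo females was −0.0366 without a filter and −0.00323 to 0.0617 with 1 library left out. For Hypo sex, DESeq2 called 1 member, and leaving out 1 library gave 0 to 1. Depth did not limit these genes, each with at least 1844 reads in every library.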

Other observations

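Ratios between members of a family are given as values only, as the log2 ratio of per-length levels within a library. Nlgn1 over Nlgn2 was −2.45 ± 0.39 in the PFC (SD, n = 20) and −2.70 ± 0.30 in the Hypo (SD, n = 18). Nlgn3 over Nlgn2 was −1.59 ± 0.21 in the PFC and −1.35 ± 0.14 in the Hypo. Nrxn3 over Nrxn2 was 0.26 ± 0.34 in the PFC and −0.12 ± 0.39 in the Hypo. All 3 ranges overlapped between the tissues.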
